A study of Homo sapiens with 12 samples.

Results

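LmnB1_6, a clonal line of human hTERT RPE-1 cells that overexpresses lamin B1 fused to the red fluorescent protein mCherry, was compared with mCherry_3, a clonal line of the same cells that overexpresses mCherry alone. The clones were identified by the clone name in the sample titles, and their 3 libraries each make 6 of the 12 libraries of the study, which also holds a second fusion clone, LmnB1_16, and a second control clone, mCherry_4. The parental line hTERT RPE-1 is an epithelial line from the human retinal pigment epithelium, immortalised with the catalytic subunit of telomerase. Every culture, control cultures included, had grown in medium with hygromycin B and received doxycycline at 0.05 ug/mL for 24 hours before mRNA sequencing. Because each group is 1 clone, an effect of the fusion protein and a difference between clones cannot be told apart here, and p-values measure the spread between the libraries of a clone. The libraries of a clone are labelled as biological replicates.

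The nuclear lamina is a meshwork of intermediate filaments under the inner nuclear membrane, built from A-type lamins and the B-type lamins B1 and B2. Lamin B1 is farnesylated and stays membrane-bound, and the lamina contacts large, mostly gene-poor and weakly transcribed stretches of the genome. The retinal pigment epithelium supports photoreceptors, recycles retinoids and depends on the transcription factors MITF and OTX2 for its identity.

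Total estimated counts ran from 20.6 to 29.5 M over the 12 libraries. No library repeated another. Chi-square values per degree of freedom ran from 3.85 to 10.05 among LmnB1_6 libraries and from 4.22 to 12.2 among mCherry_3 libraries, and were at least 106 between the clones. LmnB1_6 replicate 3 and mCherry_3 replicate 1 stood farthest from the others of their clone. Without LmnB1_6 replicate 3 there were 7791 called genes, 2215 of them at least 2-fold, and without mCherry_3 replicate 1 there were 7454 and 2109, against 8122 and 2183 with all libraries. The first principal component of the 6 libraries held 87.1% of their variance and separated the clones. Levels are in CPM, counts brought to a common library size by TMM. They are given for each library, or as the mean ± SD of the 3 libraries of a clone. Fold changes of a gene are fitted log2 values of LmnB1_6 over mCherry_3.

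LMNB1 (ENSG00000113368.12, chromosome 5), which encodes lamin B1, checks the labels. It stood at 3985, 4135 and 3808 CPM in LmnB1_6, against 77.2, 91.2 and 86.6 CPM in mCherry_3. All LmnB1_6 libraries lay far above all mCherry_3 libraries (46.8-fold, log2 fold change 5.55, SE 0.08, edgeR adjusted p = 1.22e-16). Gene-level counts do not separate the construct from the endogenous gene. The effective length that the authors deposited for LMNB1 was 989 to 1024 bases in LmnB1_6 and 2564 to 2624 bases in mCherry_3. The TPM that the authors deposited, which are scaled by that length, were 5534, 5794 and 5384 in LmnB1_6 and 45.9, 54.5 and 51.4 in mCherry_3. LMNB1 was also high in the second fusion clone, at 3374 ± 273 CPM in LmnB1_16 and 161 ± 7.29 CPM in mCherry_4.

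LmnB1_6 differed from mCherry_3 across a large part of the transcriptome. Of 15388 tested genes 8122 were called at an adjusted p under 0.05, which is 52.8%, with 3997 higher (26.0%) and 4125 lower (26.8%) in LmnB1_6. With limma on log2(TPM + 1) the calls were less even, at 2313 higher (15%) and 4640 lower (30.2%), and the median log2 fold change of all tested genes was -0.11. Shares of all tested genes given below are those of the edgeR test. Most of these differences were small, since the median absolute log2 fold change of all tested genes was 0.34, and the median log2 fold change was -0.003. At least 2-fold changes were called for 2183 genes (14.2%), 942 higher (6.12%) and 1241 lower (8.06%). At least 16-fold changes were called for 151 higher and 222 lower genes.

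**Figure D1:**
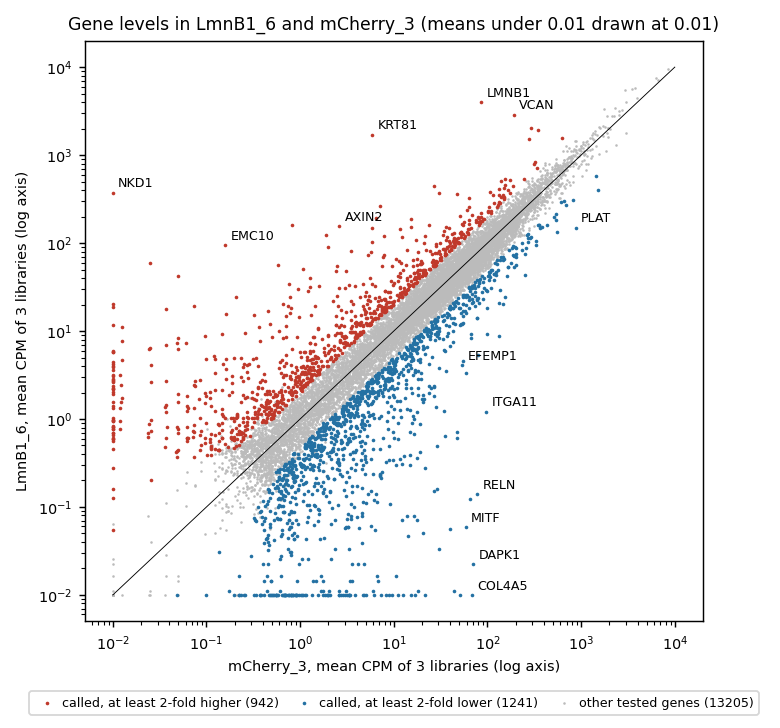
Mean CPM over 3 libraries in LmnB1_6 (vertical, log axis) against mCherry_3 (horizontal, log axis) for each tested gene, with called genes of at least 2-fold in red (942 higher) and blue (1241 lower). Genes on the bottom edge (COL4A5) had 0 or nearly 0 counts in LmnB1_6 and genes on the left edge (NKD1) had 0 or nearly 0 counts in mCherry_3, and most genes lie on the diagonal.

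The other fusion clone and the other control clone share no library with these, so the same contrast was read in them. LmnB1_16 over mCherry_4 gave 2411 called genes (15.7%), 1026 higher (6.67%) and 1385 lower (9.0%). Changes of at least 2-fold numbered 566 (3.68%), 279 higher (1.81%) and 287 lower (1.87%). Genes called in the same direction in both clone pairs numbered 1188 (7.72% of all tested), which is 14.6% of the genes called in LmnB1_6 over mCherry_3 and 49.3% of those called in LmnB1_16 over mCherry_4. Of these, 477 were higher and 711 lower in the fusion clones. Another 630 genes were called in opposite directions, 7.76% of the first list and 26.1% of the second. At 2-fold, 167 genes changed the same way in both pairs and 159 changed in opposite ways. The difference between the pairs was itself called for 5557 genes (36.1%). The matching of control clones to fusion clones is arbitrary, since the labels pair none.

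Levels in all 4 clones show which clone of the pair stood apart. Of the 942 genes at least 2-fold higher, LmnB1_6 had the highest mean of the 4 clones in 813 (86.3%) and mCherry_3 the lowest in 632 (67.1%). Of the 1241 genes at least 2-fold lower, LmnB1_6 was the lowest clone in 1040 (83.8%) and mCherry_3 the highest in 846 (68.2%). Over all tested genes these shares were 30.3%, 31.9%, 30.8% and 31.4% in the same order, and choosing genes by this very contrast raises all 4, so the shares are given as a description.

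The genes with the largest rises were mostly silent or nearly so in mCherry_3. NKD1 (ENSG00000140807.7, chromosome 16), a feedback inhibitor of Wnt signalling that binds Dishevelled, was at 402, 329 and 385 CPM in LmnB1_6 and had 0 counts in mCherry_3. It was at least 10100-fold higher in LmnB1_6, where the bound sets 3 counts over the mCherry_3 libraries and covers counting error only. NKD1 was also low elsewhere, at 0.0162 CPM in LmnB1_16 and 6.73 CPM in mCherry_4. APBA2, an adaptor protein of neurons, reached 20.1 ± 0.977 CPM in LmnB1_6 and 0 counts in mCherry_3 (at least 545-fold higher), and KCNG1, a potassium channel subunit, 18.6 ± 2.93 CPM and 0 counts (at least 503-fold higher). HSD17B2, a steroid dehydrogenase, was at 11.6 ± 1.05 CPM in LmnB1_6 and 0 counts in mCherry_3 (at least 315-fold higher). PDZRN3, a ubiquitin ligase, had 4413 counts in LmnB1_6 and 2 counts in mCherry_3, and PALM, a membrane phosphoprotein, 3078 and 4 counts.

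KRT81, a hair keratin, was among the most abundant of the genes that rose, at 1732, 1652 and 1754 CPM in LmnB1_6, against 4.34, 6.41 and 6.73 CPM in mCherry_3 (log2 fold change 8.19, SE 0.19, edgeR adjusted p = 5.89e-15). The 3 libraries of each clone stood close together and far from those of the other clone. KRT81 shares sequence with neighbouring hair keratins, so its reads are uncertain. NXN, nucleoredoxin, a redox protein that binds Dishevelled, reached 162 ± 11.9 CPM in LmnB1_6 and 0.826 ± 0.146 CPM in mCherry_3. TNFSF4, the ligand OX40L, was at 56.8 ± 2.93 CPM in LmnB1_6 and 0.580 ± 0.197 CPM in mCherry_3, and MGA, a MAX-binding transcription factor, at 24.6 ± 1.93 and 0.209 ± 0.0540 CPM in the same order. FLG, filaggrin, was at 19.1 ± 3.16 CPM in LmnB1_6 and 0.0731 ± 0.0717 CPM in mCherry_3. FLG overlaps the antisense gene FLG-AS1, which had 431 counts in LmnB1_6 and 0 in mCherry_3, and the sources used here give no strand setting, so the reads of both cannot be told apart. FNDC10, a membrane protein gene, was at 18 ± 2.55 CPM in LmnB1_6 and 0.0370 ± 0.0641 CPM in mCherry_3.

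EMC10, a subunit of the endoplasmic reticulum membrane protein complex, was on or off by clone. It stood at 95.3, 94.2 and 92.9 CPM in LmnB1_6, against 0.0761, 0.179 and 0.222 CPM in mCherry_3 (log2 fold change 9.15, SE 0.18, edgeR adjusted p = 1.40e-15). In the other pair the order was the reverse, with 0.154 CPM in LmnB1_16 and 87.2 CPM in mCherry_4. ZNF185, which encodes an actin-associated LIM protein, was high in both fusion clones, at 125 ± 3.36 CPM in LmnB1_6 and 1.89 ± 0.555 CPM in mCherry_3, and at 87.3 CPM in LmnB1_16 and 2.88 CPM in mCherry_4.

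The genes with the largest falls were at or near 0 in LmnB1_6 and expressed in mCherry_3. COL4A5 (ENSG00000188153.14, chromosome X), a basement membrane collagen chain, had 0 counts in all LmnB1_6 libraries, against 75.9, 65.5 and 62.9 CPM in mCherry_3 (at least 1670-fold lower in LmnB1_6). PGM5, a phosphoglucomutase-like protein of adherens junctions, had 0 counts in LmnB1_6 and 50.6 ± 3.93 CPM in mCherry_3 (at least 1240-fold lower). DMD, dystrophin, had 0 counts in LmnB1_6 and 21.3 ± 3.39 CPM in mCherry_3 (at least 523-fold lower). NRK, a kinase, and SLC1A1, a glutamate transporter, also had 0 counts in LmnB1_6 (at least 413-fold and 373-fold lower). DAPK1, death-associated protein kinase 1, had 2 counts in LmnB1_6 and 5719 counts in mCherry_3, and HSPB8, a small heat shock protein, 1 and 3563 counts. RELN, the secreted guidance protein reelin, was at 0.139 ± 0.0555 CPM in LmnB1_6 and 77.9 ± 4.53 CPM in mCherry_3 (log2 fold change -9.11, SE 0.15, edgeR adjusted p = 4.82e-16). XYLT1, a xylosyltransferase of proteoglycan synthesis, was at 0.0559 ± 0.0969 and 39.5 ± 0.357 CPM, FOXE1, a forkhead transcription factor, at 0.0336 ± 0.0581 and 30.2 ± 1.90 CPM, and MDGA2, a synaptic adhesion protein, at 0.0164 ± 0.0283 and 10.5 ± 1.36 CPM, in the order LmnB1_6 and mCherry_3. PPP1R9A, neurabin-1, had 1 and 1487 counts in that order.

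Most of these genes were expressed in the other pair of clones. COL4A5 stood at 44.5 CPM in LmnB1_16 and 37.5 CPM in mCherry_4, DMD at 24.5 and 19.1 CPM, and RELN at 134 and 109.9 CPM in the same order. PTPN3, a protein tyrosine phosphatase, was detected in mCherry_3 alone, at 11.1 ± 0.473 CPM, with 0 counts in the 3 other clones. HSPB8 was at 0 CPM in LmnB1_16 and 16.5 CPM in mCherry_4, so it was low in both fusion clones.

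**Figure D2:**
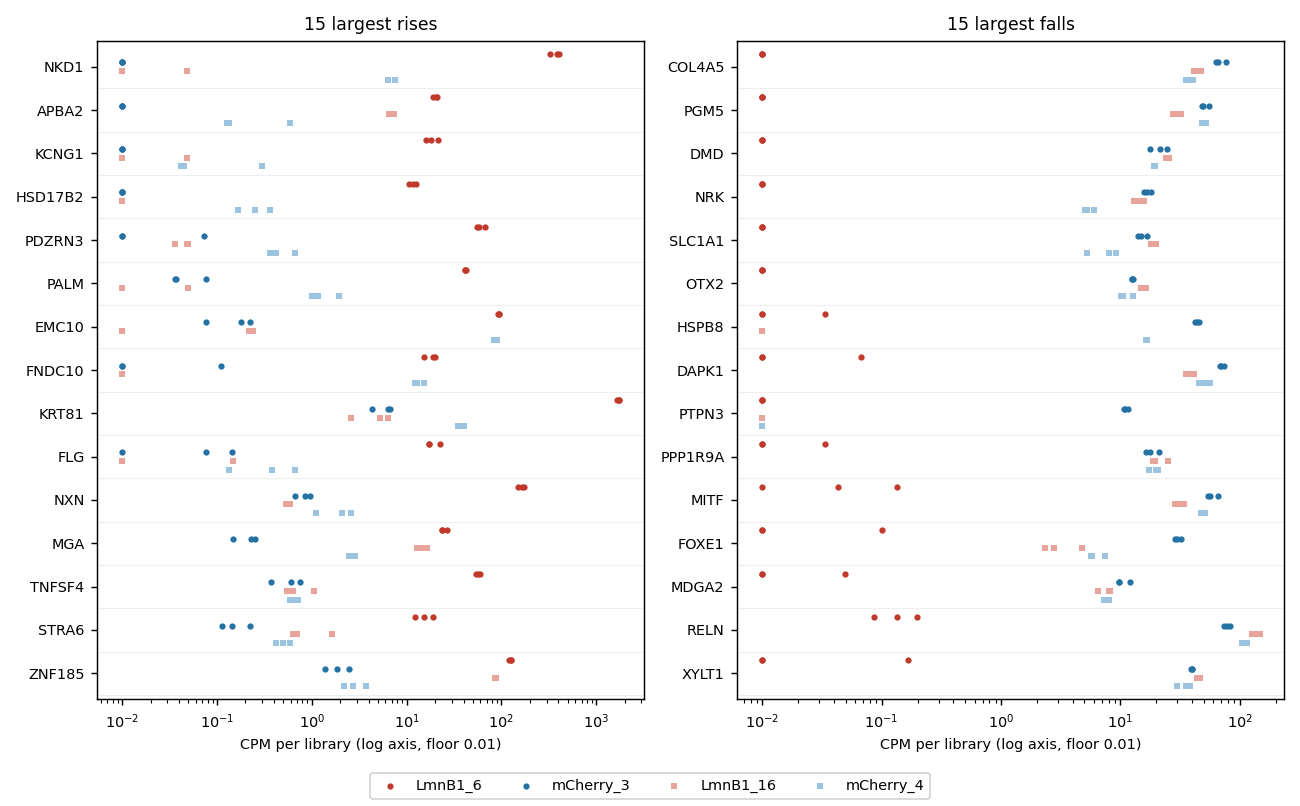
CPM of each library (log axis, values under 0.01 drawn at 0.01) for the 15 protein-coding genes with the largest rises (left) and falls (right), with LmnB1_6 above mCherry_3, and LmnB1_16 above mCherry_4 as squares. These 30 genes were chosen for their large change, so LmnB1_6 and mCherry_3 libraries that do not overlap are a description only. For NKD1 and KRT81 the squares lie well below LmnB1_6.

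Genes off in one clone of the pair were counted, taking off as under 0.1 CPM in every library of that clone and a mean of at least 5 CPM in the other. By this rule 22 genes were off in LmnB1_6 and 16 off in mCherry_3. Of the 22 genes off in LmnB1_6, 19 had at least 1 CPM in LmnB1_16 and 20 in mCherry_4. Of the 16 off in mCherry_3, 5 had at least 1 CPM in LmnB1_16 and 5 in mCherry_4, while 10 were under 0.1 CPM in LmnB1_16 and 2 in mCherry_4. Besides those above, genes off in LmnB1_6 included PLEKHA6, a junctional adaptor (3 counts, against 1145 in mCherry_3), and THRB, a thyroid hormone receptor (0 counts, against 589 in mCherry_3). ADAMTSL3, a matrix glycoprotein, had 0 counts in LmnB1_6 and 664 in mCherry_3. Genes off in mCherry_3 included the zinc finger genes ZNF331 (566 counts in LmnB1_6, 1 in mCherry_3) and ZNF736 (432 and 0 counts) and the pluripotency-associated factor SALL4 (464 and 2 counts). Genes in this paragraph that the naming rule does not take were chosen after their values were seen.

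Promoter sequences of 5 such genes show how different these start regions are in CpG content, the dinucleotide that DNA methylation modifies. They are the 250 bases before the RefSeq start (GRCh38.p14) on the gene's own strand, 5' to 3', with each CG in capitals, and were chosen after the values were seen. COL4A5 and OTX2 had 0 counts in LmnB1_6, DAPK1 had 2, APBA2 had 0 counts in mCherry_3, and EMC10 was nearly off in mCherry_3 and LmnB1_16. The COL4A5 window (chrX:108439588-108439837, plus strand) holds 8 CG and the OTX2 window (chr14:56810480-56810729, minus strand) 7. The DAPK1 window (chr9:87497617-87497866, plus strand) holds 32, the APBA2 window (chr15:28885724-28885973, plus strand) 30 and the EMC10 window (chr19:50476257-50476506, plus strand) 25.
COL4A5: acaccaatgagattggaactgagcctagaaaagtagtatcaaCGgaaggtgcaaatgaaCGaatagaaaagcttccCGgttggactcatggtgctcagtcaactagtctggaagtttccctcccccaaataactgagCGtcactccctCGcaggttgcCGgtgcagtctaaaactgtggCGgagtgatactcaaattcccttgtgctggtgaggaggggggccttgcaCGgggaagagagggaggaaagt
OTX2: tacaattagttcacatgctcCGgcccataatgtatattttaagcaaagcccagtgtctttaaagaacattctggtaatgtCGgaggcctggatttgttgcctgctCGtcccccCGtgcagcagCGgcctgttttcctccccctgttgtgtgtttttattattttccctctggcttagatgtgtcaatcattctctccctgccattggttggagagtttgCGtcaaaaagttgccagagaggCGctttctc
DAPK1: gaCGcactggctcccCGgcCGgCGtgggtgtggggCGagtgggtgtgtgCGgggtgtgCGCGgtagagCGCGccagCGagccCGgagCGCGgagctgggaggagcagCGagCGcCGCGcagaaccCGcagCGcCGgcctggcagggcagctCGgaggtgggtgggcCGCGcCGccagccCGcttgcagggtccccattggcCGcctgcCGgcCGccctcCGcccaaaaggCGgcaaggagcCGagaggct
APBA2: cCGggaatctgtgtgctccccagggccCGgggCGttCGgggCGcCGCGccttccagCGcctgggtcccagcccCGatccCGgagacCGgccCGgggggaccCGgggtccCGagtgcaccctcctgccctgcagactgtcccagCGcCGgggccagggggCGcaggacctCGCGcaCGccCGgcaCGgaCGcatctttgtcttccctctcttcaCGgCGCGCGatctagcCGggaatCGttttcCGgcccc
EMC10: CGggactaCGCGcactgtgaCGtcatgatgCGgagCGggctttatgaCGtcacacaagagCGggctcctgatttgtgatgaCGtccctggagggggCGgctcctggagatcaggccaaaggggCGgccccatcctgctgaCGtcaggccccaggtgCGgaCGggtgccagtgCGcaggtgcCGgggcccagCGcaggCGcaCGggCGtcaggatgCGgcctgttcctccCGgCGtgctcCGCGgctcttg

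In windows from 250 bases before to 50 after the start, matched by symbol to the RefSeq table for 11100 of the tested genes, the median was 26.0 CG. It was 23 for the 640 matched genes called at least 2-fold higher and 21.0 for the 846 called at least 2-fold lower. For the 18 matched of 22 genes off in LmnB1_6 it was 15, with a range of 0 to 48, and for the 9 matched of 16 genes off in mCherry_3 it was 33.0, with a range of 9 to 57. Motifs were searched as letters on both strands, and none of them contains another. GGGCGG stood in 63.1% of the matched windows of higher genes and 59.6% of those of lower genes, against 69.5% of tested genes and 44.6% of all 27303 promoters in the table. TATAAA stood in 8.44% and 9.22%, against 5.55% and 12%, TGANTCA in 7.19% and 6.03%, against 4.67% and 7.76%, and GCGGGAA in 7.81% and 6.38%, against 10.1% and 6.56%, in the same order. CCAAT stood in 41.6% and 33.9%, against 36.8% and 35.7%, and GGAATG in 13.3% and 11.1%, against 11.1% and 14.0%. These shares are descriptions of letters and say nothing of binding.

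Genes of the retinal pigment epithelium split. Here and below, lists are counted over members that passed the filter on low counts, and a member that passed through its level in 1 clone alone had to differ. Of 20 tested members of a list of 32, 5 rose and 8 fell (median log2 fold change -0.42), against 26.0% higher and 26.8% lower of all tested genes. MITF, the master regulator of pigment cells, was at 0.0428, 0 and 0.134 CPM in LmnB1_6, against 65.3, 54.6 and 56.0 CPM in mCherry_3 (log2 fold change -9.65, SE 0.22, edgeR adjusted p = 5.89e-15). OTX2, a homeobox factor that works with MITF, had 0 counts in LmnB1_6, against 12.7, 12.6 and 12.5 CPM in mCherry_3 (at least 309-fold lower). Both factors were thus at or near 0 in every LmnB1_6 library, and they were expressed in the other clones, MITF at 31.3 CPM in LmnB1_16 and 49.0 CPM in mCherry_4, and OTX2 at 15.5 and 11.1 CPM. In such bulk libraries fewer cells of a type and less RNA per cell cannot be told apart. LRAT, which esterifies retinol, was at 0.171 ± 0.0636 CPM in LmnB1_6 and 3.6 ± 0.460 CPM in mCherry_3, and PMEL, a melanosome fibril protein, at 2.09 and 4.54 CPM. Among those that rose, STRA6, the retinol uptake receptor, was at 19, 12.2 and 15.3 CPM in LmnB1_6, against 0.114, 0.143 and 0.222 CPM in mCherry_3 (log2 fold change 6.56, SE 0.35, edgeR adjusted p = 2.32e-10). PAX6, an eye field factor, rose 2.07-fold, to 72.4 ± 5.59 CPM in LmnB1_6, against 35 ± 3.71 CPM in mCherry_3.

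The label of pigment epithelium was checked against the same list. The summed level of its 31 measured genes was 1926 to 1983 CPM in LmnB1_6 and 2004 to 2051 CPM in mCherry_3, most of it from EZR and SLC16A3, which other cells also express. Of the defining genes, RPE65, TYR, DCT, TTR and TRPM1 had 0 counts in all 6 libraries, and 13 of the 31 were under 1 CPM in each of the 6. BEST1 was at 0.413 CPM in LmnB1_6 and 0.605 CPM in mCherry_3 and was not called.

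More genes of the Wnt pathway rose than fell in LmnB1_6. Wnt ligands bind Frizzled receptors, and beta-catenin then acts with TCF and LEF factors on targets such as AXIN2, NKD1, NOTUM and ZNRF3, which feed back to limit the signal. Of 30 tested members of a list of 36, 18 rose and 7 fell (median log2 fold change 0.42), against 26.0% and 26.8% of all tested genes. Members beyond the 3 with the largest change of each list, here and below, were picked after their values were seen.

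Among the feedback targets, AXIN2, a scaffold of the complex that degrades beta-catenin, was at 166, 154 and 148 CPM in LmnB1_6, against 2.02, 2.90 and 2.92 CPM in mCherry_3 (59.5-fold, log2 fold change 5.90, SE 0.16, edgeR adjusted p = 2.47e-14). Every LmnB1_6 library was far above every mCherry_3 library, and the other pair resembled mCherry_3, with 3.07 CPM in LmnB1_16 and 3.77 CPM in mCherry_4. NOTUM, a lipase that inactivates Wnt ligands, was at 4.83 ± 0.110 CPM in LmnB1_6 and 0.124 ± 0.0784 CPM in mCherry_3. ZNRF3, a ubiquitin ligase for Frizzled, rose to 29.4 ± 3.43 CPM in LmnB1_6, against 14.9 ± 1.59 CPM in mCherry_3. The transcription factors LEF1 and TCF7 rose 5.52-fold and 5.62-fold, to 62.2 ± 5.62 and 119.9 ± 4.97 CPM in LmnB1_6, against 11.2 ± 1.03 and 21.3 ± 1.24 CPM in mCherry_3. CTNNB1, beta-catenin itself, had a log2 fold change of 0.23 and was called higher.

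Of the ligands, WNT5A stood at 404, 376 and 346 CPM in LmnB1_6, against 30.4, 30.3 and 29.4 CPM in mCherry_3 (12.5-fold, log2 fold change 3.64, SE 0.10, edgeR adjusted p = 2.51e-14). It was at 47.8 CPM in LmnB1_16 and 49.3 CPM in mCherry_4, close to the level in mCherry_3. WNT5B moved the other way, with 75.8 ± 3.64 CPM in LmnB1_6 and 252 ± 8.46 CPM in mCherry_3. Secreted inhibitors were higher as well, with DKK2 at 32.0 ± 2.18 CPM in LmnB1_6 and 1.28 ± 0.213 CPM in mCherry_3, and SFRP1, which binds Wnt ligands, at 2042 ± 175 and 292 ± 38.5 CPM in the same order. SFRP1 was also high in the other pair, at 1240.4 CPM in LmnB1_16 and 1113 CPM in mCherry_4, so mCherry_3 was the low clone for it. Of the receptors, FZD7 rose and FZD8 and LGR4 fell, LGR4 to 57.9 ± 1.77 CPM in LmnB1_6, against 128 ± 8.26 CPM in mCherry_3. The difference between the 2 clone pairs was called for 20 of the 30 genes, against 36.1% of all tested genes. In LmnB1_16 over mCherry_4 2 of the 30 rose and 7 fell, against 6.67% higher and 9.0% lower of all tested genes.

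Rises also outnumbered falls among genes of TGF-beta and BMP signalling. In this family secreted ligands bind serine/threonine kinase receptors, and SMAD proteins carry the signal to targets such as the ID genes, SMAD6, SMAD7 and PMEPA1. Of 36 tested members 22 rose (61.1%) and 5 fell (13.9%), against 26.0% and 26.8% of all tested genes, with a median log2 fold change of 0.38. Of the ligands, BMP2 stood at 91.0, 91.6 and 88.9 CPM in LmnB1_6, against 1.71, 2.11 and 2.11 CPM in mCherry_3 (45.6-fold, log2 fold change 5.51, SE 0.14, edgeR adjusted p = 2.02e-14). BMP4 was at 143 ± 8.74 CPM in LmnB1_6 and 11.6 ± 2.34 CPM in mCherry_3, and GDF6 at 54.5 ± 2.65 and 7.52 ± 0.653 CPM in the same order. For these ligands, which were picked for large changes, no LmnB1_6 library overlapped an mCherry_3 library. TGFB2 and INHBA, of the TGF-beta and activin branch, rose with log2 fold changes of 1.07 and 1.08.

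Among the targets, PMEPA1, an inhibitor of TGF-beta signalling, reached 266 ± 18.5 CPM in LmnB1_6 and 7.20 ± 0.681 CPM in mCherry_3 (37.0-fold), and ID2 14.7 ± 1.25 and 2.42 ± 0.419 CPM. SMAD6 and SMAD7, which block the receptors, had log2 fold changes of 1.59 and 0.85, whereas ID1 and ID3 had 0.19 and 0.15 and were not called. LTBP1 and LTBP2, which hold latent TGF-beta in the matrix, had log2 fold changes of 1.69 and 2.10. Of the members that fell, GREM1, an antagonist of BMP ligands, was at 152 ± 19.2 CPM in LmnB1_6 and 379 ± 15.9 CPM in mCherry_3, and FST, which binds activin, at 3.99 ± 0.681 and 13.5 ± 1.92 CPM. In the other pair 8 of the 36 rose and 9 fell, against 6.67% higher and 9.0% lower of all tested genes. The difference between the pairs was called for 25, against 36.1% of all tested genes.

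**Figure D3:**
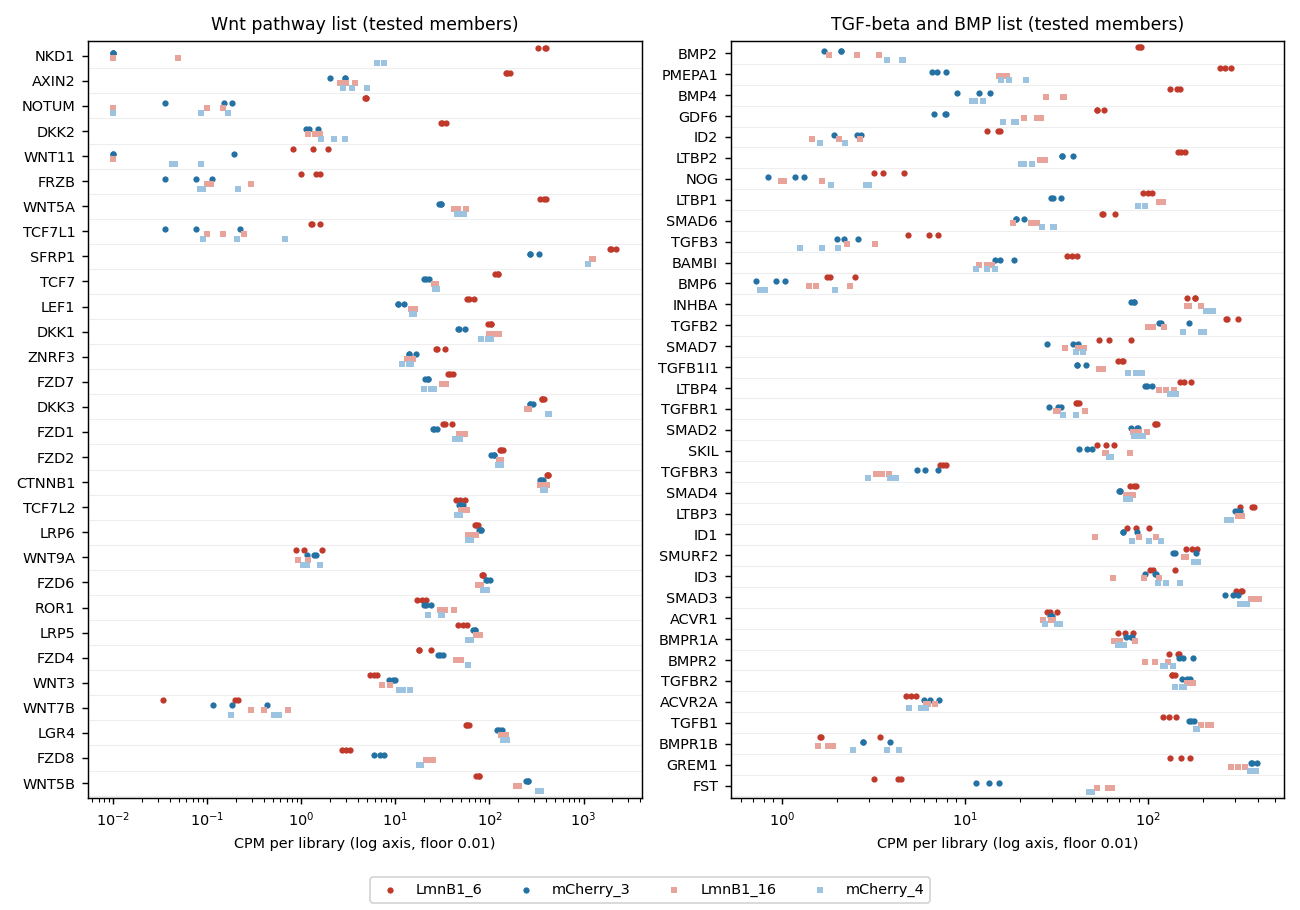
CPM of each library (log axis, values under 0.01 drawn at 0.01) for the 30 tested Wnt genes (left) and the 36 tested TGF-beta and BMP genes (right), ordered by log2 fold change. For NKD1, AXIN2, DKK2, WNT5A, BMP2 and PMEPA1 the LmnB1_6 libraries stand apart from those of the 3 other clones.

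Mitotic genes were all higher in LmnB1_6 than in mCherry_3. All 32 tested members rose, against 26.0% of all tested genes, with a median log2 fold change of 1.09 and a range of 0.38 to 1.6. CCNB1, cyclin B1, was at 137, 137 and 119 CPM in LmnB1_6, against 36.0, 46.3 and 47.8 CPM in mCherry_3 (3.02-fold, log2 fold change 1.59, SE 0.09, edgeR adjusted p = 4.77e-10). CENPA, the centromeric histone, was at 27.8 ± 3.73 and 9.14 ± 1.64 CPM, and CDC20, the activator of the anaphase-promoting complex, at 183 ± 14.4 and 63.5 ± 8.14 CPM, in the order LmnB1_6 and mCherry_3. MKI67, the proliferation antigen Ki-67, was at 765 ± 63.4 CPM in LmnB1_6 and 407 ± 16.1 CPM in mCherry_3. LmnB1_6 had the highest mean of the 4 clones for 13 of the 32 genes, and mCherry_3 had the lowest for all 32. Over all tested genes these shares were 30.3% and 31.9%. CCNB1 stood at 117 CPM in LmnB1_16 and 105 CPM in mCherry_4. In that pair 4 of the 32 rose and 0 fell, against 6.67% higher and 9.0% lower of all tested genes. The difference between the pairs was called for all 32, against 36.1% of all tested genes.

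Replication genes moved in the same direction by smaller amounts. Of 35 tested members 29 rose (82.9%, against 26.0% of all tested genes) and 0 fell (median log2 fold change 0.51). The lowest clone was mCherry_3 for 31 of the 35, against 31.9% of all tested genes. In the other pair 12 of the 35 rose and 0 fell, against 6.67% higher and 9.0% lower of all tested genes. The difference between the pairs was called for 18, against 36.1% of all tested genes. GINS4, which belongs to the helicase that opens DNA at forks, was at 63.9 ± 6.57 CPM in LmnB1_6 and 25.9 ± 1.85 CPM in mCherry_3, RFC5, of the clamp loader, had a log2 fold change of 0.97, and GINS1 had 0.82. The G1/S regulators CCNE1, CCNE2, CDC6 and E2F1 were not called, with log2 fold changes from -0.02 to 0.09. Of the heterochromatin, DNA methylation and Polycomb genes 21 of 36 rose (58.3%) and 3 fell (8.33%), against 26.0% and 26.8% of all tested genes (median log2 fold change 0.26). In the other pair 10 of these 36 rose and 0 fell, against 6.67% higher and 9.0% lower of all tested genes. The difference between the pairs was called for 14, against 36.1% of all tested genes. CBX2, a Polycomb subunit, rose to 12.1 ± 2.04 CPM in LmnB1_6, against 4.11 ± 0.897 CPM in mCherry_3, and SUV39H1, a histone H3 lysine methyltransferase, to 34.1 ± 4.36 CPM, against 17.2 ± 0.773 CPM. HMGA2, a chromatin architectural protein, was at 184 ± 14.0 CPM in LmnB1_6 and 74.9 ± 14.3 CPM in mCherry_3, and DNMT3A, a DNA methyltransferase, was among the members that fell, with a log2 fold change of -0.38. Without LmnB1_6 replicate 3 the number of these chromatin genes called lower was 7, and without mCherry_3 replicate 2 it was 1.

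Of the CDK inhibitors and p53 targets 7 of 25 rose and 7 fell (28% each, median log2 fold change 0.07), shares near the 26.0% and 26.8% of all tested genes. With limma on log2(TPM + 1) 5 were called higher and 9 lower. CDKN1A, the CDK inhibitor p21, was at 183, 204 and 286 CPM in LmnB1_6, against 363, 301 and 280.1 CPM in mCherry_3 (log2 fold change -0.49, SE 0.14, edgeR adjusted p = 0.00688), and its libraries overlapped between the clones. BBC3, the apoptosis effector PUMA, rose to 11.3 CPM in LmnB1_6, against 3.57 CPM in mCherry_3, and the stress genes PLK3 and GADD45A fell, with log2 fold changes of -0.96 and -0.89.

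Other genes of the nuclear lamina and envelope changed less than LMNB1. Of 24 tested members, LMNB1 included, 11 rose (45.8%) and 6 fell (25%), against 26.0% and 26.8% of all tested genes (median log2 fold change 0.17), and with limma on log2(TPM + 1) 8 were called higher and 8 lower. LmnB1_6 had the highest mean of the 4 clones for 8 of the 24 and mCherry_3 the lowest for 14, against 30.3% and 31.9% of all tested genes. In the other pair 2 of the 24 rose and 2 fell, against 6.67% higher and 9.0% lower of all tested genes. TMPO, which encodes the lamina-associated polypeptides 2, was at 375 ± 31.9 CPM in LmnB1_6 and 173 ± 12.5 CPM in mCherry_3 (log2 fold change 1.11), LMNB2, lamin B2, at 503 ± 5.83 and 299.9 ± 21.3 CPM, and LBR, the lamin B receptor, at 207 ± 10.0 and 131 ± 2.89 CPM. LMNA, which encodes lamins A and C, rose 1.42-fold. SYNE1, a nesprin that ties the nucleus to the cytoskeleton, fell to 52.9 ± 3.05 CPM in LmnB1_6, against 165 ± 24.3 CPM in mCherry_3.

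Interferon-stimulated genes and genes of antigen presentation were lower in LmnB1_6. Of 29 tested interferon-stimulated genes and regulators (35 listed) 1 rose and 22 fell (median log2 fold change -0.71), against 26.0% higher and 26.8% lower of all tested genes. HERC6, an interferon-induced ubiquitin ligase, was at 7.75, 10.7 and 10.2 CPM in LmnB1_6, against 23.8, 24.3 and 25.9 CPM in mCherry_3 (log2 fold change -1.36, SE 0.13, edgeR adjusted p = 1.67e-07). The libraries of the clones did not overlap for HERC6, which was picked for its large change. IRF9, part of the complex that drives these genes, was at 10.1 CPM in LmnB1_6 and 22.7 CPM in mCherry_3, and IFIH1, a sensor of double-stranded RNA, at 3.54 and 8.96 CPM. OAS1, which makes the activator of RNase L, had 0 counts in LmnB1_6 and was at 2.76 ± 0.395 CPM in mCherry_3. IFIT1, MX1 and OAS3 were not called. In the other pair 10 of the 29 rose and 2 fell, against 6.67% higher and 9.0% lower of all tested genes. The difference between the pairs was called for 25, against 36.1% of all tested genes. LmnB1_6 was the lowest clone for 17 of the 29 and mCherry_3 the highest for 21, against 30.8% and 31.4% of all tested genes.

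Of 18 MHC class I and antigen processing genes 1 rose (5.56%) and 13 fell (72.2%), against 26.0% and 26.8% of all tested genes (median log2 fold change -0.55). HLA-B stood at 107, 112 and 121 CPM in LmnB1_6, against 255, 286 and 277 CPM in mCherry_3 (log2 fold change -1.26, SE 0.08, edgeR adjusted p = 8.36e-10). HLA-C was at 327 ± 16.3 CPM in LmnB1_6 and 586 ± 28.6 CPM in mCherry_3. The HLA genes share sequence, so the split of reads between them is uncertain, but B2M, the shared light chain, fell as well, to 475 ± 12.6 CPM in LmnB1_6, against 688 ± 22.1 CPM in mCherry_3. LmnB1_6 was the lowest of the 4 clones for 15 of the 18 genes, against 30.8% of all tested genes. In the other pair 3 of the 18 rose and 0 fell, against 6.67% higher and 9.0% lower of all tested genes. The difference between the pairs was called for 13, against 36.1% of all tested genes. Of 26 tested cytokines, chemokines and secreted senescence factors (40 listed) 5 rose (19.2%) and 13 fell (50%), with a median log2 fold change of -0.63. IL1B, interleukin 1 beta, was at 0.642, 0.245 and 0.168 CPM in LmnB1_6, against 11.9, 11.9 and 11 CPM in mCherry_3 (33.4-fold lower), VEGFA was at 24.2 ± 3.03 and 58.7 ± 2.88 CPM, and LIF rose 2.33-fold.

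The basement membrane collagens split by chain. Collagen IV is a trimer, and the chains COL4A3, COL4A4 and COL4A5 form one network and COL4A1 and COL4A2 another. COL4A5 had 0 counts in LmnB1_6, and its head-to-head neighbour COL4A6 was at 0.0143 ± 0.0247 CPM in LmnB1_6 and 0.924 ± 0.290 CPM in mCherry_3. COL4A3 was at 0.0143 ± 0.0247 and 3.54 ± 0.304 CPM, and COL4A4 at 0.274 ± 0.0877 and 21.5 ± 2.74 CPM, in the order LmnB1_6 and mCherry_3. In contrast COL4A1 and COL4A2 rose, to 442 ± 41.0 and 821 ± 50.6 CPM in LmnB1_6, against 355 ± 5.47 and 537 ± 32.5 CPM in mCherry_3. In the other pair COL4A3 to COL4A6 were all expressed, COL4A4 at 11.2 CPM in LmnB1_16 and 6.49 CPM in mCherry_4. Over the whole list of collagens and modifying enzymes (26 tested of 32) 13 rose (50%) and 8 fell (30.8%), against 26.0% and 26.8% of all tested genes. COL1A1, a fibrillar collagen, rose to 186 ± 34.2 CPM in LmnB1_6, against 15.1 ± 0.880 CPM in mCherry_3, and COL11A1 fell to 0.0714 ± 0.0737 CPM, against 17.8 ± 4.42 CPM.

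Of 30 tested laminins, proteoglycans and matrix glycoproteins (39 listed) 10 rose (33.3%) and 15 fell (50%), against 26.0% and 26.8% of all tested genes. VCAN, the large proteoglycan versican, was at 3098, 2660.3 and 2866 CPM in LmnB1_6, against 214, 174 and 186 CPM in mCherry_3 (15-fold, log2 fold change 3.91, SE 0.13, edgeR adjusted p = 3.98e-13). BGN, biglycan, was at 50.4 ± 4.72 and 1.07 ± 0.129 CPM, TNC, tenascin C, at 364 ± 11.4 and 47.5 ± 5.79 CPM, and TGFBI at 1923 ± 75.4 and 347 ± 15.9 CPM, in the order LmnB1_6 and mCherry_3. FN1, fibronectin, rose 1.83-fold. EFEMP1, a fibulin, fell to 4.06 ± 0.279 CPM in LmnB1_6, against 53.6 ± 6.38 CPM in mCherry_3, and the laminin chains LAMA3 and LAMB2 fell with log2 fold changes of -2.10 and -0.99.

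Among 25 tested matrix proteases and inhibitors (29 listed) 7 rose (28%) and 11 fell (44%), against 26.0% and 26.8% of all tested genes. Both plasminogen activators were lower, PLAT at 143, 149 and 155 CPM in LmnB1_6, against 848, 899 and 872 CPM in mCherry_3 (5.86-fold lower, log2 fold change -2.55, SE 0.07, edgeR adjusted p = 2.01e-14), and PLAU at 56.5 ± 5.86 and 204 ± 18.1 CPM. ADAM19, a membrane-anchored protease, rose 3.6-fold. Both activators were higher in the other fusion clone, where PLAT was at 1944 CPM in LmnB1_16 and 876 CPM in mCherry_4. Of 32 integrins and focal adhesion genes 12 rose and 12 fell (37.5% each), and with limma on log2(TPM + 1) 7 were called higher and 17 lower. In LmnB1_16 over mCherry_4, 3 of the 32 rose and 18 fell, against 6.67% higher and 9.0% lower of all tested genes. ITGA11, a collagen receptor chain, was at 1.20, 0.834 and 1.61 CPM in LmnB1_6, against 94.9, 99.3 and 96.0 CPM in mCherry_3 (76.6-fold lower), and ITGB3 was at 1.31 ± 0.337 and 9.99 ± 0.329 CPM. ITGB8, which activates latent TGF-beta, rose to 72.9 ± 8.55 CPM in LmnB1_6, against 7.80 ± 1.46 CPM in mCherry_3.

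Of the contractile genes 7 of 19 rose (36.8%) and 5 fell (26.3%), against 26.0% and 26.8% of all tested genes, with MYLK, myosin light chain kinase, at 514 ± 36.6 CPM in LmnB1_6 and 139.9 ± 4.29 CPM in mCherry_3, CNN1 rising and MYL9 falling. Of the genes of the YAP/TEAD pathway 8 of 28 rose (28.6%) and 12 fell (42.9%), with a median log2 fold change of -0.08. Among called members with a mean of at least 5 CPM the largest changes were falls of the targets CCN1, ANKRD1 and F3, which were at 574 ± 66.8, 181 ± 24.5 and 94.9 ± 8.78 CPM in LmnB1_6, against 1429.6 ± 81.0, 535 ± 161 and 331 ± 73.8 CPM in mCherry_3. In LmnB1_16 over mCherry_4, 2 of the 19 contractile genes rose and 12 fell, and of the 28 YAP/TEAD genes 0 rose and 11 fell. Over all tested genes of that pair 6.67% were higher and 9.0% lower.

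Among epithelial and mesenchymal genes the largest change was a rise of SNAI2. Of 27 tested members (36 listed) 17 rose (63%) and 8 fell (29.6%), against 26.0% and 26.8% of all tested genes (median log2 fold change 0.43). SNAI2, the transcriptional repressor Slug, was at 43.9, 39.2 and 37.7 CPM in LmnB1_6, against 0.913, 1.11 and 1.78 CPM in mCherry_3 (31.6-fold, log2 fold change 4.98, SE 0.18, edgeR adjusted p = 1.26e-12). It was at 2.58 CPM in LmnB1_16 and 2.87 CPM in mCherry_4, near the level in mCherry_3. TWIST1, TWIST2, ZEB1, ZEB2, PRRX1 and VIM, all linked to the mesenchymal state, rose with log2 fold changes from 0.43 to 1.03. The junction genes OCLN, CLDN1 and DSP fell, with log2 fold changes of -1.6, -3.80 and -1.36, and the keratins KRT8 and KRT18 fell with -0.87 and -1.08. PKP2, a desmosomal plakophilin, and TJP1, a tight junction scaffold, rose against that direction, with log2 fold changes of 1.61 and 0.84.

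Of 35 genes of the ERK pathway 12 rose (34.3%) and 9 fell (25.7%), against 26.0% and 26.8% of all tested genes, and with limma on log2(TPM + 1) 7 were called higher and 10 lower. IL17RD, an inhibitor of growth factor signalling, reached 193 ± 13.4 CPM in LmnB1_6 and 6.42 ± 0.575 CPM in mCherry_3 (30.1-fold), and NRG1, a ligand of the ERBB receptors, 82.4 ± 4.55 and 14.0 ± 1.68 CPM. ERBB3, its receptor, fell to 1.69 ± 0.306 CPM in LmnB1_6, against 21.0 ± 1.83 CPM in mCherry_3, and TGFA, a ligand of EGFR, to 0.140 ± 0.0358 CPM, against 6.39 ± 0.709 CPM. Of 19 tested Notch genes (25 listed) 8 rose (42.1%) and 5 fell (26.3%), with POGLUT3, a protein O-glucosyltransferase, at 34.5 ± 3.36 CPM in LmnB1_6 and 0.759 ± 0.388 CPM in mCherry_3, and LFNG and NOTCH1 also higher. Of 36 tested axon guidance genes (44 listed) 14 rose (38.9%) and 10 fell (27.8%), and with limma on log2(TPM + 1) 10 were called higher and 10 lower. NRP1, a co-receptor of semaphorins and VEGF, rose to 416 ± 7.26 CPM in LmnB1_6, against 133 ± 4.0 CPM in mCherry_3, and NTN4, netrin 4, fell to 43.2 ± 2.93 CPM, against 252 ± 14.9 CPM. EFNB3 and ROBO1 fell with log2 fold changes of -2.58 and -1.83.

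HOX genes, which set position along the body axis, were tested for 8 of 34 members, all of the HOXB cluster on chromosome 17. Of these 6 rose (75%, against 26.0% of all tested genes) and 1 fell (median log2 fold change 2.69). LmnB1_6 had the highest mean of the 4 clones for 7 of the 8, against 30.3% of all tested genes. HOXB3 was at 107, 102 and 99.9 CPM in LmnB1_6, against 5.55, 5.45 and 6.48 CPM in mCherry_3 (17.7-fold, log2 fold change 4.14, SE 0.09, edgeR adjusted p = 5.89e-15), and at 2.78 CPM in LmnB1_16 and 1.80 CPM in mCherry_4. HOXB9 was at 68.9 ± 3.65 and 7.72 ± 1.18 CPM and HOXB6 at 40.0 ± 4.02 and 5.54 ± 0.233 CPM, in the order LmnB1_6 and mCherry_3. HOXB7 fell to 1.74 ± 0.247 CPM in LmnB1_6, against 3.20 ± 0.224 CPM in mCherry_3. The cluster holds antisense genes, and their reads cannot be told apart here without strand.

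Of 26 glycolysis and hypoxia genes 17 rose (65.4%) and 6 fell (23.1%), against 26.0% and 26.8% of all tested genes (median log2 fold change 0.30). With limma on log2(TPM + 1) 10 were called higher and 6 lower. LmnB1_6 had the highest mean of the 4 clones for 10 of the 26 and mCherry_3 the lowest for 16, against 30.3% and 31.9% of all tested genes. In the other pair 1 of the 26 rose and 7 fell, against 6.67% higher and 9.0% lower of all tested genes. LDHA, lactate dehydrogenase A, rose to 1464 ± 110.4 CPM in LmnB1_6, against 854 ± 16.1 CPM in mCherry_3, while the glucose transporter SLC2A1 and hexokinase HK2 fell to 199 ± 3.30 and 23.4 ± 3.12 CPM in LmnB1_6, against 513 ± 46.3 and 78.1 ± 4.11 CPM in mCherry_3. Of 27 genes of the unfolded protein and ATF4 responses 13 rose (48.1%) and 4 fell (14.8%), and with limma on log2(TPM + 1) 9 were called higher and 5 lower. SLC7A11, the cystine transporter, rose 2.98-fold and PSAT1, of serine synthesis, had a log2 fold change of 0.96, though PSAT1 has pseudogenes that share its sequence. SLC7A5, a leucine transporter, was lower at 403 ± 41.0 CPM in LmnB1_6 and 1501 ± 94.8 CPM in mCherry_3. Of 31 sterol and fatty acid synthesis genes 6 rose (19.4%) and 11 fell (35.5%), with TM7SF2, a sterol reductase, falling 4.24-fold, SREBF1 falling and the desaturase FADS2 rising. Of 26 tested heat shock genes (30 listed) 9 rose (34.6%) and 6 fell (23.1%), against 4 called higher and 7 lower with limma on log2(TPM + 1), with HSPA12A rising 15.3-fold and the near-identical pair HSPA1A and HSPA1B at log2 fold changes of -0.59 (called) and 0.15 (not called), a split that is uncertain. Of 31 tested ion channel genes (47 listed) 11 rose (35.5%) and 12 fell (38.7%), among them KCNQ5, which rose, and KCNK6, which fell, with log2 fold changes of 1.48 and -1.6.

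**Figure D4:**
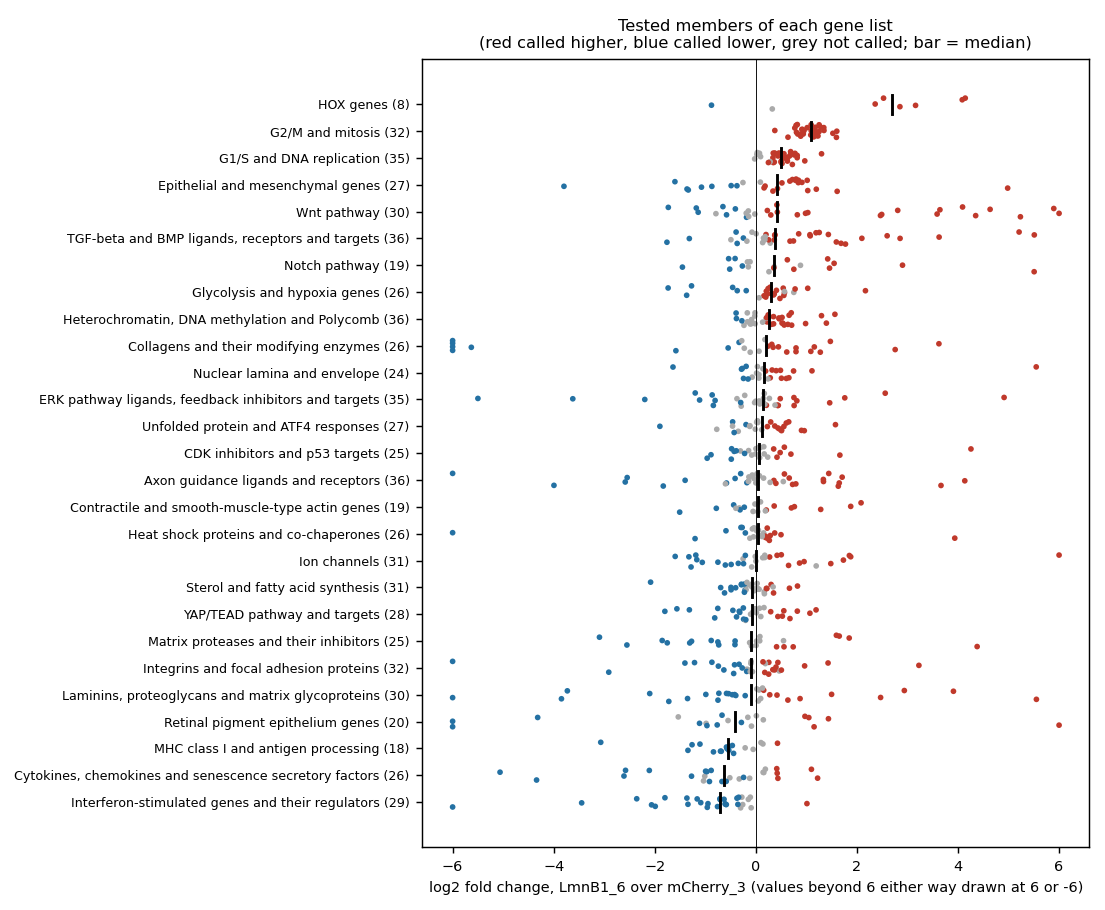
Fitted log2 fold change (LmnB1_6 over mCherry_3, values beyond 6 drawn at 6 or -6) of the tested members of each list, ordered by the list's median (black bar), with called genes in red or blue. All 32 mitotic genes lie right of 0, 22 of 29 interferon-stimulated genes were called lower, and most lists hold genes on both sides.

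Markers of other cell types were mostly absent. Of the neuronal and glial list 6 of 12 markers had 0 counts in all 6 libraries, and the list's summed level was 556.1 to 594.9 CPM in LmnB1_6 and 195.4 to 201.3 CPM in mCherry_3. TUBB3, a tubulin of neurons and many cultured cells, made up most of it, at 459 ± 15.9 CPM in LmnB1_6 and 152 ± 4.05 CPM in mCherry_3. SNAP25, a protein of vesicle fusion, rose to 16.7 ± 1.22 CPM in LmnB1_6, against 0.457 ± 0.216 CPM in mCherry_3, and SYT1 and MAP2 rose. Of 6 tested markers 4 rose and 0 fell, against 26.0% higher and 26.8% lower of all tested genes. The same shares of all tested genes apply to the other marker lists. With 2 to 6 tested members, the marker lists are too small to be read as lists. The muscle list summed to 25.21 to 34.87 CPM in LmnB1_6 and 126.8 to 152.6 CPM in mCherry_3, nearly all of it TNNT1, a troponin, with MYOD1, MYOG and MYF5 at 0 counts (2 of 3 tested fell). The leukocyte list summed to 43.09 to 46.26 CPM in LmnB1_6 and 78.18 to 88.68 CPM in mCherry_3, mostly CD68, a lysosomal protein of many cells, with CD3E, MS4A1 and TYROBP at 0 counts (1 of 2 tested fell). The endothelial list summed to 5.789 to 8.222 CPM in LmnB1_6 and 16.28 to 19.92 CPM in mCherry_3, mostly TIE1, with PECAM1 at 0 counts in LmnB1_6 and 0.0482 CPM in mCherry_3 (3 of 4 tested fell), and the photoreceptor list stayed at or under 3.423 CPM, with CRX and RCVRN at 0 counts (1 of 2 tested rose). That 1 was RP1, at 1.98 CPM in LmnB1_6 and 1.1 CPM in mCherry_3, and it was not called without LmnB1_6 replicate 3 (adjusted p = 0.141) or without mCherry_3 replicate 3 (adjusted p = 0.0841). NRL, also on the photoreceptor list, was tested and not called. The part of such cells in the results was not tested.

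By chromosome, the share of genes called higher was the largest on chromosomes 18 and 19. On chromosome 18, 36.0% of 214 tested genes were called higher and 28.5% lower, and on chromosome 19, 34.4% of 1058 were higher and 17.3% lower, against 26.0% and 26.8% of all tested genes. The median log2 fold change of chromosome 19 was 0.15, the highest of the 23 chromosomes, and -0.004 in LmnB1_16 over mCherry_4. The lowest median was on chromosome 15, at -0.08. Chromosome 19 carries clusters of zinc finger genes, many of them KRAB-type repressors, and these were separated after the values were seen. Of 225 tested genes there with ZNF, ZSCAN, ZFP or ZIM symbols, 117 were higher (52.0%) and 5 lower (2.22%), with a median of 0.54 in LmnB1_6 over mCherry_3 and 0.04 in LmnB1_16 over mCherry_4. The 833 other genes of the chromosome had 29.7% higher and 21.4% lower, with a median of 0.06. Zinc finger genes of a cluster share sequence, so reads can be split between them and single genes are uncertain.

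Of 294 windows of 10 Mb with at least 10 tested genes, the median log2 fold change was at or above 0.3 in 3 and at or below -0.3 in 6. The highest was chromosome 3 from 70 to 80 Mb (median 0.77 over 15 genes), where 7 genes were higher (46.7%) and 2 lower (13.3%). Over all tested genes 26.0% were higher and 26.8% lower. Some of the higher genes lay near the floor, such as ZNF717 at 0.0551 CPM in LmnB1_6 and 0 CPM in mCherry_3, and FOXP1-DT at 0.440 and 0.135 CPM. The window holds PDZRN3 and the forkhead factor FOXP1, which was at 61.9 ± 5.61 CPM in LmnB1_6 and 36.3 ± 1.6 CPM in mCherry_3. It also holds ROBO1, which fell to 30.9 ± 2.45 CPM in LmnB1_6, against 110.1 ± 10.2 CPM in mCherry_3. The next was chromosome 19 from 20 to 30 Mb (median 0.71 over 31 genes), where 18 were higher (58.1%) and 1 lower (3.23%). There ZNF737 and ZNF66 stood at 2.04 ± 0.194 and 1.40 ± 0.235 CPM in LmnB1_6 and had 0 counts in mCherry_3, whereas CCNE1, UQCRFS1 and URI1 further along the window were not called. The lowest window was chromosome 18 from 60 to 70 Mb (median -0.61 over 20 genes), with 12 genes lower and 3 higher. It holds TNFRSF11A, the receptor RANK, at 3.30 ± 0.0538 CPM in LmnB1_6 and 59.3 ± 2.81 CPM in mCherry_3, and SERPINB2, an inhibitor of plasminogen activators, at 8.81 ± 1.42 and 133 ± 2.09 CPM, while the apoptosis regulator BCL2 rose to 16.8 ± 0.847 CPM, against 6.19 ± 0.590 CPM. In LmnB1_16 over mCherry_4 the medians of these 3 windows were -0.02, -0.01 and -0.06. Genes named from the windows were chosen after their values were seen.

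**Figure D5:**
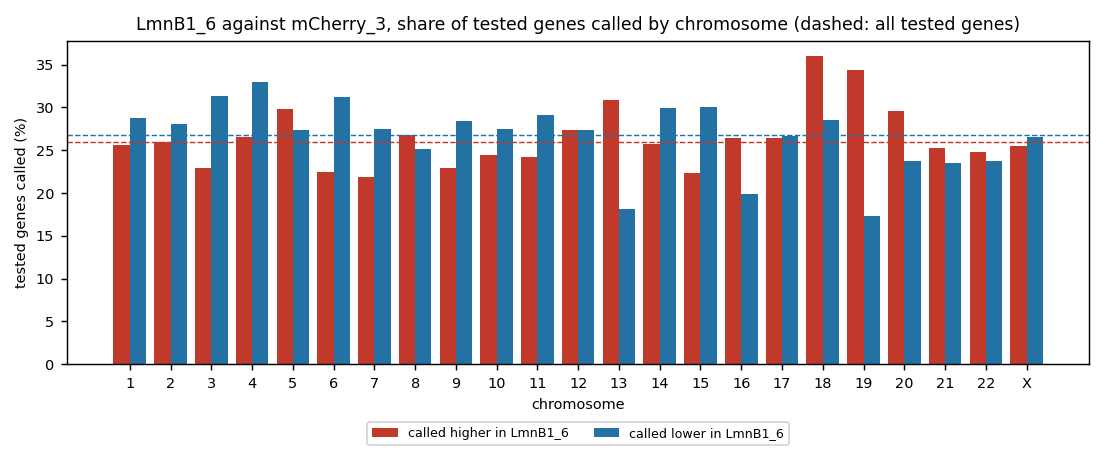
Share of tested genes called higher (red) and lower (blue) in LmnB1_6 over mCherry_3 for each chromosome, with dashed lines at the shares over all tested genes (26.0% and 26.8%). Chromosome 19 has 34.4% higher and 17.3% lower genes, and chromosome 18 has 36.0% higher genes.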

How the data were processed

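Polyadenylated RNA of 12 libraries from 4 clones was sequenced by the authors. They deposited a gene-level quantification per library, whose columns are, per the file headers, the estimated count of each gene, its TPM and its effective length in bases. Per the submitters' processing notes the tools STAR, Salmon and DESeq2 and the builds GRCh38 and hg38 were used, and the sources used here give neither versions nor strand settings. Salmon shares reads that match several genes between them, so members of families with like sequence are uncertain.

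From these files the estimated counts of 60708 genes were rounded to whole numbers, and 15388 genes passed the filter of edgeR 4.0.16 (filterByExpr, minimum count 10, minimum total 15; R 4.3.3). The filter used all 12 libraries and no outcome, but a gene expressed in 1 clone alone could pass through that clone. Libraries were scaled with TMM factors, and edgeR's quasi-likelihood test was fitted across all genes and clones, with Benjamini-Hochberg adjustment over all tested genes and calls at an adjusted p under 0.05. LmnB1_6 over mCherry_3 is the main contrast, and LmnB1_16 over mCherry_4 and the difference of both were taken from the same fit. Symbols and positions came from GENCODE release 29 by gene ID (58440 genes matched), and promoters from RefSeq by symbol. Alternatives used DESeq2 1.42.0, limma 3.58.1 on log2(TPM + 1), other filters and scaling, a replicate term and leaving out each library. The script was tested on simulated counts.

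Total counts were 20.6 to 29.5 M per library. Bounds for genes at 0 take 3 counts over the libraries of a clone and cover counting error only. Genes were named by a rule: LMNB1, the 15 top rising and the 15 top falling protein-coding genes (mean of at least 5 CPM), up to 3 called members of each list, and the 5 most abundant genes off in each clone. The lists, the comparison and this rule were chosen with earlier results of these data known, and other genes were chosen after their values were seen. Of the listed symbols 6 are older names with no value in the files and were left out.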

Additional observations from a re-analysis of the deposited data

Results flagged for a closer look

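The contrast of LmnB1_6 over mCherry_3 differed from that of LmnB1_16 over mCherry_4 for 5557 of 15388 genes by the test of the difference of both contrasts in the same edgeR fit. Of 111 named genes 106 passed that test, 29 were called in the same direction in both pairs and 33 in opposite directions. Of all tested genes 36.1% passed it, 7.72% were called in the same direction, and 630 genes in opposite directions. The naming rule mostly took large changes of LmnB1_6 over mCherry_3, where 110 of the 111 were called. That choice raised the number passing, so the counts of named genes are a description. The difference of the log2 fold changes is given for each of the 33 named genes called in opposite directions. A positive value means that the contrast was higher in LmnB1_6 over mCherry_3. The pairing of the clones is arbitrary, and fitted values of genes at 0 counts depend on the prior count and are no bound.

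Among the genes with the largest rises the difference was 24.56 for NKD1, 16.83 for HSD17B2, 14.30 for PDZRN3, 15.71 for PALM, 18.19 for EMC10, 20.10 for FNDC10, 11.16 for KRT81, 10.60 for FLG and 9.35 for NXN. Among those with the largest falls it was -12.38 for DMD, -13.09 for NRK, -12.87 for SLC1A1, -11.74 for OTX2, -9.40 for RELN and -9.46 for XYLT1. EMC10 and FNDC10 were high in LmnB1_6 and mCherry_4 and near 0 in mCherry_3 and LmnB1_16.

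In the immune and cytokine lists the difference was -2.11 for HLA-B, -1.76 for HERC6, -6.81 for IL1B and -1.96 for VEGFA. In the matrix and contractile lists it was -7.00 for COL4A4, -4.23 for EFEMP1, -3.70 for PLAT, -3.29 for PLAU and 2.30 for CNN1. In the signalling and junction lists it was 6.2 for BMP2, 3.15 for NRG1, 5.32 for DKK2 and 2.31 for PKP2. It was -1.20 for SREBF1, 6.16 for HSPA12A, 5.96 for HOXB9, -2.41 for TIE1 and -2.90 for TNNT1. With 3 libraries a clone, single values were not screened for a library far from the others.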

How the results depend on the processing

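The numbers of called and of at least 2-fold genes were recomputed under 12 alternative settings. The numbers called the same way in both pairs, or with a difference between pairs, were recomputed under all but the 6 libraries alone, which lack the other pair. No named gene changed direction in these settings. Some lists with a median log2 fold change near 0 changed sign with limma on log2(TPM + 1). The median of the ERK list was 0.15 with edgeR and -0.04 with limma, and that of the heat shock list 0.04 and -0.07. With limma on log2(TPM + 1) 2313 genes were called higher and 4640 lower, and the 2-fold count was 1237, with 436 higher and 801 lower, and 644 genes were called the same way in both pairs. DESeq2 called 8084 genes, 2131 of them at least 2-fold. With a level under 0.5 CPM taken as off, 57 genes were off in LmnB1_6 and 30 in mCherry_3, and with a level under 0.1 TPM, 10 were off in mCherry_3. Leaving out each library in turn gave 7203 to 7791 called genes, 2070 to 2215 at 2-fold, 997 to 1155 the same way in both pairs, 4867 to 5526 with a difference between pairs and a log2 fold change of LMNB1 of 5.482 to 5.603. Deviations of same-numbered LmnB1_6 and mCherry_3 libraries from their clone means had correlations of -0.13, 0.0672 and -0.105. Deviations from a mean of 3 libraries depend on each other, so these values cannot decide whether the numbers pair the libraries. With a replicate block 8211 genes were called, 2167 at 2-fold, 1226 the same way and 5632 with a difference, and LMNB1 was at 5.549. The log2 fold change of LMNB1 was 6.758 with limma on log2(TPM + 1), where TPM are scaled by the effective length. Most named genes were chosen for a large change of LmnB1_6 over mCherry_3, so their values were likely to hold under any setting. Of 1332 values of named genes 1329 kept direction and side of the threshold. The exceptions were all RP1, which also lost its call with limma on TPM (log2 fold change 0.10, adjusted p = 0.722). With limma 12 chromatin genes were higher and 0 HOX genes lower, and 2 antigen presentation genes were higher with DESeq2 and with the 6 libraries alone. Depth limits statements on genes under about 1 CPM.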
